A study of Homo sapiens with 29 samples.

Results

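The genes described here are 10 genes of the innate sensing of nucleic acids, out of 28266 gene symbols counted by RNA sequencing. They were chosen by name for their place in the pathway: the DNA sensors CGAS and IFI16, the adaptor STING1, the kinase TBK1, the transcription factor IRF3, the RNA sensors IFIH1 (MDA5) and TLR3, the RNA sensing adaptor MAVS, and 2 enzymes that limit nucleic acids or their precursors, TREX1 and SAMHD1. All 10 symbols have a line in the count table.

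Cytosolic DNA is bound by cGAS, the product of CGAS, which then makes the cyclic dinucleotide cGAMP. STING, the product of STING1, binds cGAMP and recruits the kinase TBK1, which phosphorylates IRF3, and IRF3 enters the nucleus to switch on type I interferon and chemokine genes. RNA reaches the same kinase by other routes: MDA5 signals through MAVS on mitochondria, and TLR3 signals from endosomes through the adaptor TICAM1. In senescent fibroblasts, chromatin fragments in the cytoplasm are a known ligand of cGAS, and the cGAS/STING route is known to feed the senescence-associated secretory phenotype.

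The study asked how loss of SMARCA4, the ATPase of the SWI/SNF chromatin remodelling complex, changes senescent cells. All libraries came from IMR90 ER:RAS, a cell line of human lung fibroblasts infected with a retroviral pLNC vector for a fusion of the estrogen receptor with oncogenic RAS. The fusion stays silent until 4-hydroxytamoxifen (4OHT) is added, and RAS activity then leads to senescence. DMSO_siNT cells received the solvent DMSO and a non-targeting siRNA, 4OHT_siNT cells received 4OHT and a non-targeting siRNA, and 4OHT_siSMARCA4 cells received 4OHT and an siRNA against SMARCA4, by reverse transfection, with collection on day 7. By their labels the DMSO_siNT controls also carry the ER:RAS vector, and RAS in this model is expressed from a transgene rather than its own promoter. Each group held 6 libraries, 3 with the siRNA numbered 2 and 3 with the siRNA numbered 4. The sources do not say whether the libraries came from separate cultures, so p-values measure the spread between these libraries.

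Library totals lay between 9657309 and 18039313 counts. Libraries also carry a set name ending in V or VM, whose meaning the labels do not give. V and VM were split evenly in DMSO_siNT, at 3 libraries each, while 4OHT_siNT was VM throughout. The knockdown group combined 3 V and 2 VM libraries with 1 whose column name matched no sample title, called the unlabelled library here. Its column name carries the set name 1VM, which no sample title with siSMARCA4_2 has, so it was kept apart from the VM sets. For comparisons with 4OHT_siNT, values within 1 kind of set can therefore be given for VM alone. The library labelled DMSO_siNT 4-2V stood apart: its ESR1 level, in counts-per-million (CPM), was 29.5, against 1034 to 1316 CPM in the other libraries of its group, which goes against its label as ER:RAS cells. Calls among the 10 genes that rest on DMSO_siNT are therefore given with and without it, and values from the fit of all libraries include it. SMARCA4 itself was at 275 to 330 CPM in 4OHT_siNT and 70.4 to 141 CPM in 4OHT_siSMARCA4, and the V libraries kept 30.8% to 46.7% of the 4OHT_siNT mean against 23.3% and 28.9% in the VM libraries. The immune markers PTPRC, CD3E, CD14 and NKG7 did not exceed 0.393 CPM in any library, while the 7 fibroblast markers summed to 11280 to 31213 CPM in DMSO_siNT, 14894 to 19792 CPM in 4OHT_siNT and 8620 to 12561 CPM in 4OHT_siSMARCA4. In the same order of groups, the 4 epithelial markers summed to 66.3 to 91.8, 61.5 to 77.1 and 33.0 to 56.5 CPM and the 3 endothelial markers to 1.21 to 2.27, 3.92 to 5.12 and 1.21 to 5.69 CPM. The part of these marker levels in the results was not tested.

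Levels are given as CPM on the TMM scale, and tests are edgeR's quasi-likelihood test with Benjamini-Hochberg adjustment across every gene in the fit. An adjusted p below 0.05 counted as a call. Of the 10 genes, 8 passed the filter on low counts in the fit of the 3 groups, TLR3 passed in the fit that splits groups by siRNA number and in the fit with V and VM sets as levels, and TREX1 passed in none of these fits. After induction of senescence, CGAS fell and IRF3 rose, which makes 2 of the 8 tested genes called in 4OHT_siNT against DMSO_siNT, where 52.8% of all 13136 genes tested were called. After SMARCA4 knockdown, CGAS rose and was the only 1 of the 8 called in 4OHT_siSMARCA4 against 4OHT_siNT, against 10.6% of all genes. For 4OHT_siSMARCA4 against DMSO_siNT, TBK1 rose and SAMHD1 fell, 2 of 8, where 50.5% of all genes were called. The comparisons share groups of libraries, so their values are set side by side only.

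Leaving out DMSO_siNT 4-2V lowered the common coefficient of variation between libraries from 23.35% to 15.35% and raised the number of these genes called. Without it, 3 of 8 were called in 4OHT_siNT against DMSO_siNT (IRF3 and IFI16 higher, CGAS lower), with 58.3% of all genes called. In 4OHT_siSMARCA4 against 4OHT_siNT the 3 were CGAS and TBK1, higher, and STING1, lower, with 24.6% of all genes called, although no library of those 2 groups had changed. In the comparison of 4OHT_siSMARCA4 with DMSO_siNT they were TBK1 and IRF3, higher, and STING1, lower, with 59.1% of all genes called.

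**Figure D1:**
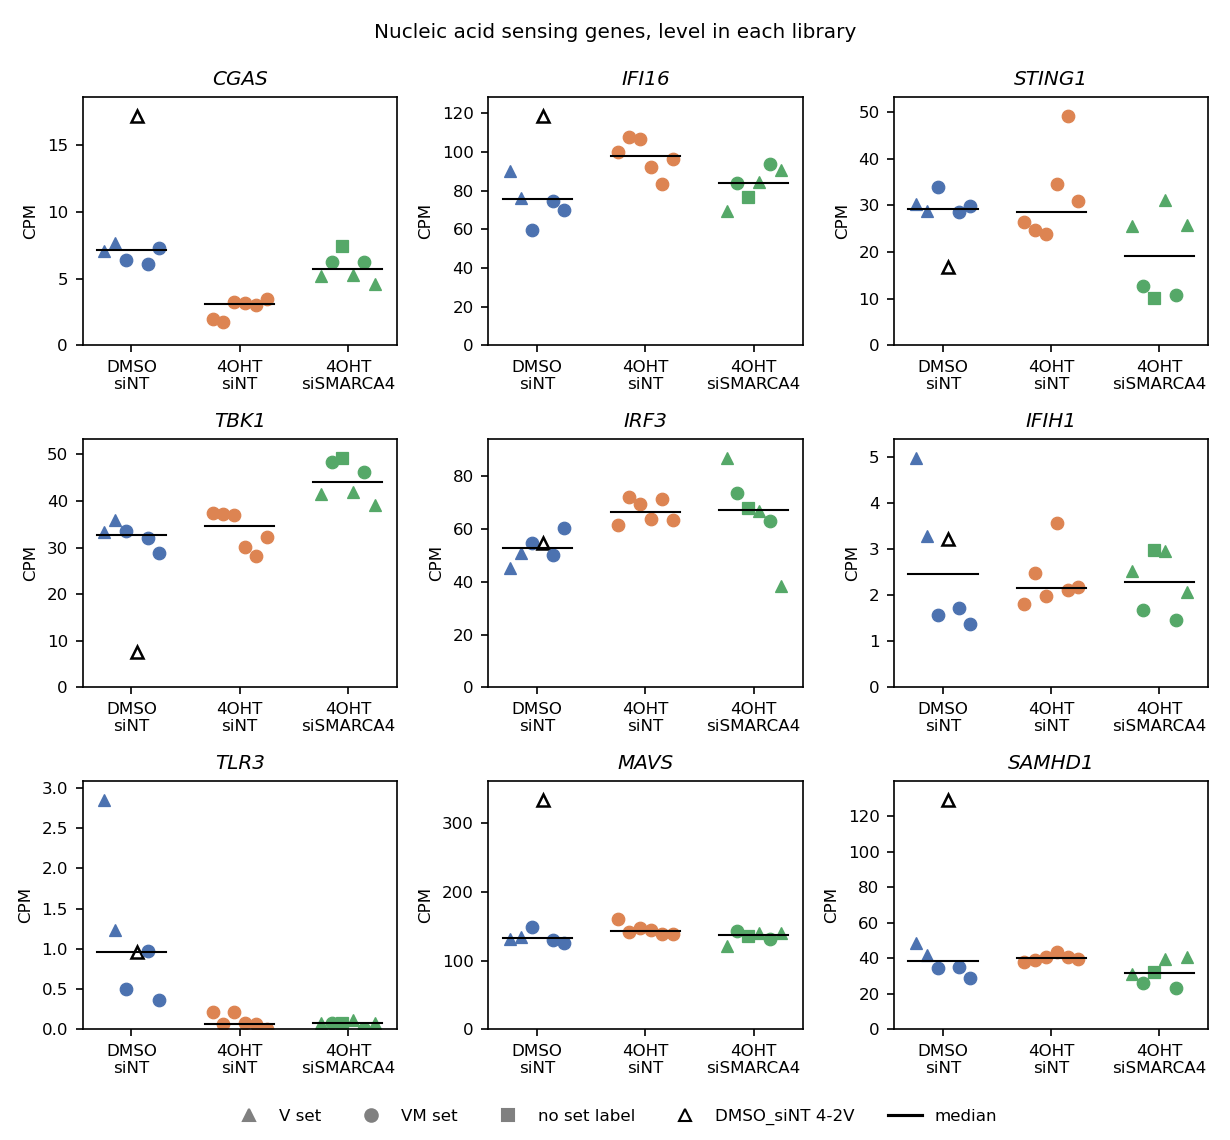
Level of each of 9 sensing genes in CPM (vertical axis, from 0) in the 18 libraries, by group. Each point is a library, its shape gives the set letters (triangle V, circle VM, square unlabelled), the open symbol is DMSO_siNT 4-2V, and the line is the median of the group. CGAS in 4OHT_siNT stayed at or below 3.52 CPM while every library of the other groups was at 4.62 CPM or more.

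CGAS, which encodes the DNA sensor and cGAMP synthase (chromosome 6, 73413515 to 73452297, minus strand, GRCh38), was the gene of the set called both after induction of senescence and after knockdown. Its level in DMSO_siNT was 6.12 CPM at the lowest, 7.17 at the median and 17.2 at the highest, the last in DMSO_siNT 4-2V, and the other libraries reached 7.66. In 4OHT_siNT the lowest, median and highest levels of CGAS were 1.73, 3.10 and 3.52 CPM. In 4OHT_siSMARCA4 they were 4.62, 5.74 and 7.43 CPM. The 4OHT_siNT libraries overlapped with neither other group, and the 4OHT_siSMARCA4 libraries lay within the DMSO_siNT range or below it. Across the genome, 33.8% of genes tested did not overlap between 4OHT_siNT and DMSO_siNT and 11.4% did not overlap between 4OHT_siSMARCA4 and 4OHT_siNT.

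CGAS was 3.07-fold lower in 4OHT_siNT than in DMSO_siNT (log2 fold change -1.62 ± 0.25 SE, adjusted p = 2.31e-05). Without DMSO_siNT 4-2V it was 2.48-fold lower (-1.31 ± 0.18, adjusted p = 2.27e-06), and within VM sets the log2 fold change was -1.25 ± 0.21. The rise after SMARCA4 knockdown was 2.10-fold, with a 95% interval of the log2 fold change from 0.54 to 1.60. It was called when each of the 18 libraries was left out in turn, with log2 fold changes from 0.95 to 1.14. Within VM sets, with 2 knockdown libraries, CGAS rose by 1.15 on the log2 scale (adjusted p = 0.00408), and it lost its call when the set letters were a term in the fit (0.85, adjusted p = 0.0949). That fit includes DMSO_siNT 4-2V and leaves out the unlabelled library, and 4OHT_siNT has no V library. The fit with this term was not repeated without DMSO_siNT 4-2V. Against DMSO_siNT, CGAS in knockdown cells was at -0.55 ± 0.24 on the log2 scale (95% interval -1.05 to -0.05, adjusted p = 0.0635), and at -0.25 (interval -0.60 to 0.10) without DMSO_siNT 4-2V.

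By siRNA, the CGAS increase over all 4OHT_siNT libraries was 1.2 ± 0.28 on the log2 scale with siSMARCA4_2 (adjusted p = 0.0105) and 0.96 ± 0.28 with siSMARCA4_4 (adjusted p = 0.0639), where 12.0% and 4.5% of all 13659 genes tested were called. The siRNAs differed by 0.24 (95% interval -0.43 to 0.91, adjusted p = 0.939). Without DMSO_siNT 4-2V, both siRNAs gave a called increase, 1.2 (adjusted p = 0.000175) and 0.97 (adjusted p = 0.00223). Set against each non-targeting siRNA alone, knockdown raised CGAS by 1.32 over siNT 2 (adjusted p = 0.0117, with 8.72% of all genes called), while the difference from siNT 4 was 0.84 (adjusted p = 0.0783, with 10.4% called).

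IFI16, a nuclear and cytosolic DNA sensor of the PYHIN family (chromosome 1, 158999968 to 159055155, plus strand), was among the more abundant sensors. The lowest, median and highest levels of IFI16 were 59.6, 75.5 and 119 CPM in DMSO_siNT, 83.7, 98.2 and 108 CPM in 4OHT_siNT, and 69.8, 84.2 and 94.0 CPM in 4OHT_siSMARCA4. DMSO_siNT 4-2V gave the highest value, and the other DMSO_siNT libraries reached 90.3 CPM. The groups overlapped in every comparison. With all libraries the log2 fold change in 4OHT_siNT against DMSO_siNT was 0.26 (95% interval -0.02 to 0.54, adjusted p = 0.108). IFI16 rose without DMSO_siNT 4-2V (0.40 ± 0.10, adjusted p = 0.00154) and within VM sets (0.52 ± 0.10, adjusted p = 0.000495). Knockdown gave -0.23 (interval -0.51 to 0.05, adjusted p = 0.303).

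STING1 encodes the cGAMP receptor at the endoplasmic reticulum (chromosome 5, 139475533 to 139482935, minus strand). Its levels were 16.7, 29.3 and 33.8 CPM in DMSO_siNT (lowest, median, highest), 23.9, 28.7 and 49.2 CPM in 4OHT_siNT, and 10.1, 19.2 and 31.2 CPM in 4OHT_siSMARCA4. The lowest DMSO_siNT value was that of 4-2V, and the other 5 libraries lay at 28.5 CPM or above. The knockdown libraries fell into separate ranges by set letters: the V libraries were at 25.7, 25.9 and 31.2 CPM, the VM libraries at 12.7 and 10.8 CPM and the unlabelled library at 10.1 CPM. The V libraries overlapped with 4OHT_siNT and the rest did not.

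For STING1, the log2 fold change after SMARCA4 knockdown was -0.70 ± 0.27 (95% interval -1.26 to -0.14, adjusted p = 0.106), and 0.17 (interval -0.39 to 0.73) after induction of senescence, or 0.07 (interval -0.46 to 0.60) without DMSO_siNT 4-2V. The knockdown difference was called without DMSO_siNT 4-2V (-0.70 ± 0.25, adjusted p = 0.0408) and without the knockdown library 4-2V (-0.90, adjusted p = 0.0334), and in no other of the 18 fits that left a library out. Within VM sets STING1 fell by 1.44 on the log2 scale (SE 0.26, adjusted p = 0.00125), 1 of 4 of the genes called there, with CGAS, TBK1 and SAMHD1, where 21.0% of all genes were called. Adding the unlabelled library to the VM sets gave -1.51 (adjusted p = 7.85e-05), with the same 4 genes called and 30.4% of all genes. Between V and VM libraries of the knockdown group, STING1 differed by 1.22 ± 0.30 on the log2 scale (adjusted p = 0.146, with 0.101% of 13887 genes called), and without DMSO_siNT 4-2V in the fit by 1.24 ± 0.26 (adjusted p = 0.0175, with 1.62% called). SMARCA4 was also higher in those V libraries, 92.7 to 141 CPM against 70.4 and 87.0 CPM, and its part in the difference was not tested. Against DMSO_siNT, STING1 in knockdown cells fell by 1.40 within VM sets (adjusted p = 0.000749), while within V sets the log2 fold change was 0.13 (adjusted p = 0.771). The V sets include DMSO_siNT 4-2V, at 16.7 CPM of STING1 against 28.5 to 33.8 CPM in the other DMSO_siNT libraries. A fit of V sets without it was not made, so the V value is not shown to differ from the VM value.

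The non-targeting siRNAs also gave STING1 separate ranges in 4OHT_siNT cells. Levels were 23.9 to 26.5 CPM with siNT 2 and 30.9 to 49.2 CPM with siNT 4, a log2 difference of -0.61 (95% interval -1.35 to 0.12, adjusted p = 0.581) in a comparison that called 0.0732% of all genes. Set against siNT 4, STING1 in knockdown cells was lower, with a log2 fold change of -1.0 ± 0.29 (adjusted p = 0.0394). Set against siNT 2, the value was -0.39 (adjusted p = 0.524). For siSMARCA4_2 and siSMARCA4_4, STING1 differed by -0.48 (interval -1.23 to 0.28).

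**Figure D2:**
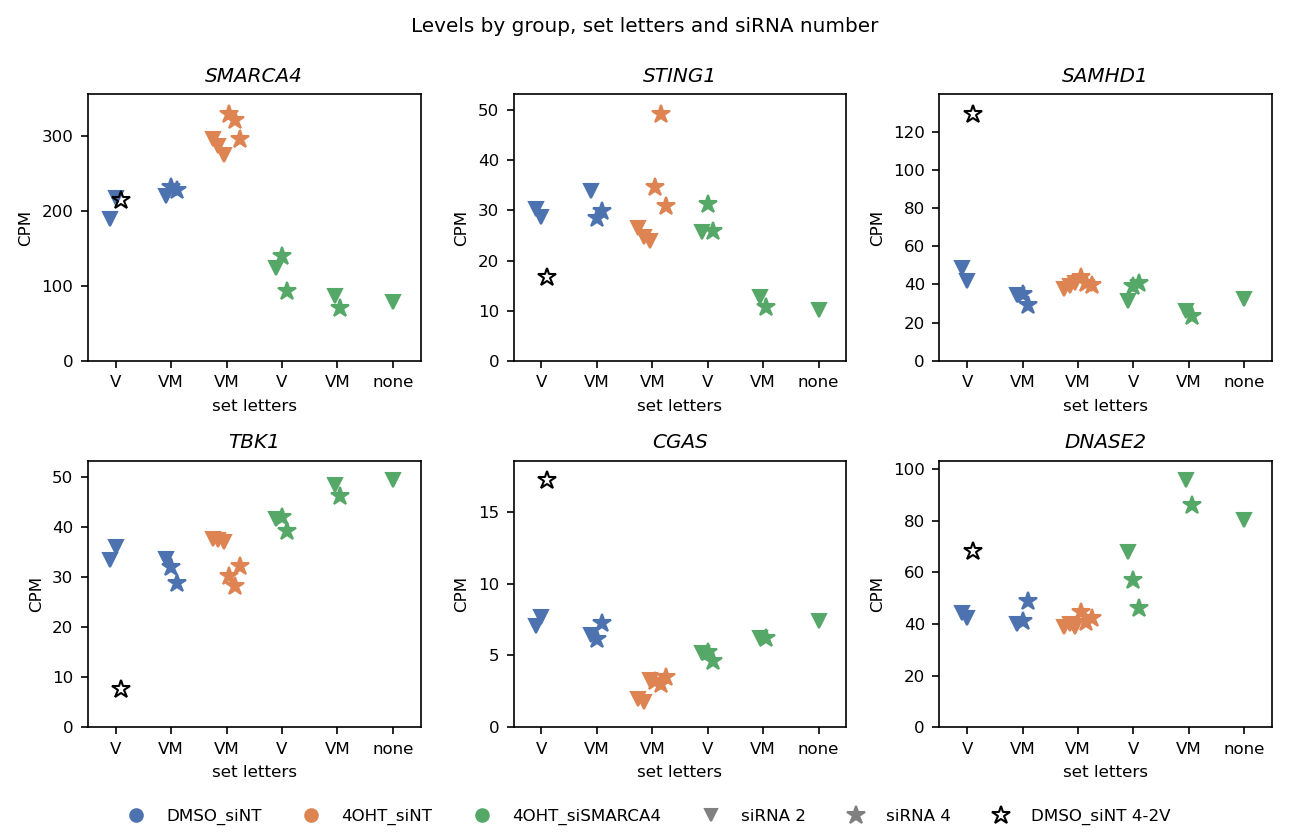
Levels in CPM (vertical axis, from 0) of SMARCA4, STING1, SAMHD1, TBK1, CGAS and DNASE2 in each library, by group, set letters and siRNA number. In 4OHT_siSMARCA4, STING1 lay at 25.7 CPM or more in the V libraries and at 12.7 CPM or less in the VM and unlabelled libraries, and SMARCA4 was higher in the V than in the VM libraries.

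TBK1 encodes the kinase that STING, MAVS and TLR3 signalling share (chromosome 12, 64452090 to 64502114, plus strand). It was at 7.53, 32.7 and 36 CPM in DMSO_siNT (lowest, median, highest), at 28.2, 34.6 and 37.5 CPM in 4OHT_siNT, and at 39.1, 44.1 and 49.3 CPM in 4OHT_siSMARCA4. Every knockdown library was above every library of the other groups. The value of 7.53 CPM was DMSO_siNT 4-2V, and the next lowest in that group was 28.8 CPM. Non-overlap upward was seen for 5.12% of all genes in 4OHT_siSMARCA4 against 4OHT_siNT and for 14.3% against DMSO_siNT.

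The rise of TBK1 in 4OHT_siSMARCA4 over DMSO_siNT was 1.55-fold (log2 fold change 0.63 ± 0.23, adjusted p = 0.027) and 1.35-fold without DMSO_siNT 4-2V (0.43 ± 0.09, adjusted p = 0.000344). The first of these was no longer called without the unlabelled library (adjusted p = 0.0525), in the fit of only the 2 groups (0.63, adjusted p = 0.0638) and with a replicate block by set label (0.72, adjusted p = 0.108). Over 4OHT_siNT, the difference was 0.40 ± 0.23 (95% interval -0.08 to 0.87, adjusted p = 0.297), and it was called without DMSO_siNT 4-2V (0.39 ± 0.09, adjusted p = 0.00286), in the fit of only those 2 groups (0.39, adjusted p = 0.00531) and within VM sets (0.47 ± 0.12, adjusted p = 0.0117). Without DMSO_siNT 4-2V, TBK1 was called with both siRNAs against SMARCA4, at 0.47 (adjusted p = 0.000589) and 0.34 (adjusted p = 0.0113), where 29.4% and 16.4% of 13828 genes were called. Senescence alone gave 0.23 (interval -0.24 to 0.71), or 0.05 (interval -0.14 to 0.24) without DMSO_siNT 4-2V.

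IRF3 encodes the transcription factor that TBK1 phosphorylates (chromosome 19, 49659569 to 49665875, minus strand). Its levels were 45.2, 52.7 and 60.4 CPM in DMSO_siNT, 61.6, 66.6 and 72 CPM in 4OHT_siNT and 38.5, 67.4 and 87.0 CPM in 4OHT_siSMARCA4 (lowest, median, highest). The 4OHT_siNT libraries lay just above all DMSO_siNT libraries, and the knockdown libraries spanned both. Between 4OHT_siNT and DMSO_siNT, 33.8% of all genes tested did not overlap. IRF3 rose 1.27-fold after induction of senescence (log2 fold change 0.35 ± 0.14, adjusted p = 0.0385), a call that held in 11 of the 18 fits that left out 1 library. The 7 libraries whose removal ended it were DMSO_siNT 2-1V, 2-2V, 2-2VM and 4-2VM and 4OHT_siNT 2-2VM, 2-3VM and 4-2VM, with adjusted p up to 0.0841. The call was also lost with a replicate block by set label (0.33, adjusted p = 0.243) and with the set letters as a term (0.30, adjusted p = 0.152). It was kept within VM sets (0.28, adjusted p = 0.0229, with 53.5% of all genes called) and in the fit of only the 2 groups (0.36, adjusted p = 0.00523). Knockdown gave -0.02 (interval -0.30 to 0.27). Of the exon bases of IRF3, 19.3% overlap BCL2L12 on the opposite strand, which had 111 to 369 counts per library, and whether the counting used strand is not given in the sources used here.

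IFIH1 encodes MDA5, a cytosolic sensor of long double-stranded RNA (chromosome 2, 162267074 to 162318684, minus strand), and TLR3 encodes the endosomal receptor for double-stranded RNA (chromosome 4, 186068911 to 186088073, plus strand). Both are known interferon-inducible genes. Promoters of the 10 genes were searched on both strands for the core of the interferon-stimulated response element. This core is GAAA and GAAA set 2 bases apart (TTTC and TTTC as read on the other strand). RefSeq promoter windows on GRCh38.p14, from 250 bases before to 50 bases after a start, were found for 7 of the 10 genes in 8 windows; CGAS, STING1 and IRF3 had no entry. The core was in 1255 of 35116 windows (3.57%), and among the 7 genes in those of IFIH1 and TLR3, which are shown for this reason with the matches in capitals, each from 250 bases before to 20 bases after the start, on the strand of the gene. The IFIH1 stretch is chr2:162318665-162318934 on the minus strand and the TLR3 stretch is chr4:186068906-186069175 on the plus strand.
IFIH1: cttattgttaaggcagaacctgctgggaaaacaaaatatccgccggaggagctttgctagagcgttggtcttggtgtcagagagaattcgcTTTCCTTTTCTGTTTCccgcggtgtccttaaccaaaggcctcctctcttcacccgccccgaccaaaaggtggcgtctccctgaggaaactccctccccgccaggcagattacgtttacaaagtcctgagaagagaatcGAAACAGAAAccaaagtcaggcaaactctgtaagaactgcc
TLR3: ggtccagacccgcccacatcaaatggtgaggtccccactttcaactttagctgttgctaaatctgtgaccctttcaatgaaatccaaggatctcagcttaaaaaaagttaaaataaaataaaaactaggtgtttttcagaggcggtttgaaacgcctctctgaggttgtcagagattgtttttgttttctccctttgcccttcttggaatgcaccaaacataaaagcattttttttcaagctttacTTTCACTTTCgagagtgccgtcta
IFIH1 held 3 matches, 2 overlapping ones read on the other strand that begin 159 and 153 bases before the start and 1 in sense that begins 21 bases before it. TLR3 held 1 match, read on the other strand, beginning 4 bases before the start. A match is a description of the letters and says nothing of binding in these cells.

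IFIH1 was at 1.38, 2.47 and 4.99 CPM in DMSO_siNT, at 1.82, 2.15 and 3.56 CPM in 4OHT_siNT and at 1.47, 2.29 and 2.99 CPM in 4OHT_siSMARCA4 (lowest, median, highest). The DMSO_siNT values split by set letters, with the V libraries at 3.23 to 4.99 CPM and the VM libraries at 1.38 to 1.72 CPM. That V and VM difference was 1.29 ± 0.29 on the log2 scale (adjusted p = 0.0627, with 0.324% of all genes called), and 1.39 (adjusted p = 0.0391, with 0.862% called) without DMSO_siNT 4-2V. IFIH1 was not called in any of the 3 comparisons of groups. In 4OHT_siNT against DMSO_siNT its log2 fold change was -0.18 (95% interval -0.81 to 0.44) with all libraries and 0.60 (interval 0.04 to 1.16, adjusted p = 0.0662) within VM sets, so its direction depended on the sets compared. The knockdown difference was -0.04 (interval -0.67 to 0.58) with all libraries. Within VM sets it was -0.60 (interval -1.26 to 0.07, adjusted p = 0.186), and -0.22 (interval -0.81 to 0.37) with the unlabelled library added. With the set letters as a term it was -0.81 (interval -1.36 to -0.27, adjusted p = 0.0681), so its size too depended on the sets.

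TLR3 mRNA was near the limit of detection outside DMSO_siNT. DMSO_siNT libraries held 5 to 40 counts of TLR3 each, while no 4OHT_siNT library exceeded 3 counts and no knockdown library exceeded 2. TLR3 thus did not overlap between DMSO_siNT and 4OHT_siNT, where 33.8% of the genes tested in the fit of the 3 groups did not overlap. That fit did not test TLR3. The CPM of TLR3 in DMSO_siNT were 0.364 at the lowest, 0.963 at the median and 2.85 at the highest, the last in the library 2-1V. Summed over libraries, the counts were 88, 9 and 6. The level of TLR3 relative to library size was 11.1-fold higher in DMSO_siNT than in 4OHT_siNT (95% exact interval 5.58 to 25, counting error only) and 11.6-fold higher without DMSO_siNT 4-2V. The library 2-1V held 40 of the 88 counts, and without it the ratio was 7.37 (interval 3.57 to 17.1). Between V and VM libraries of DMSO_siNT, TLR3 differed by 1.47 on the log2 scale (p = 0.0127, adjusted p = 0.208, with 0.324% of all genes called). The V libraries include 2-1V, and TLR3 entered that fit through its counts in DMSO_siNT, so no difference between sets is drawn from this value. For 4OHT_siSMARCA4 over 4OHT_siNT the ratio was 0.712 (interval 0.209 to 2.24), so a difference in TLR3 after knockdown was not detectable at this depth.

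MAVS, the mitochondrial adaptor of MDA5 (chromosome 20, 3846799 to 3876123, plus strand), was at 126, 134 and 335 CPM in DMSO_siNT, at 139, 143 and 161 CPM in 4OHT_siNT and at 121, 138 and 144 CPM in 4OHT_siSMARCA4 (lowest, median, highest). The value of 335 CPM was DMSO_siNT 4-2V, the next highest was 149 CPM, and all groups overlapped. None of the 3 comparisons called MAVS. After induction of senescence its log2 fold change was -0.20 (95% interval -0.60 to 0.19), or 0.12 (interval -0.02 to 0.26) without DMSO_siNT 4-2V, and after knockdown it was -0.10 (interval -0.50 to 0.29).

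SAMHD1 encodes a dNTP triphosphohydrolase that limits reverse transcription and acts at stalled replication forks (chromosome 20, 36890229 to 36951893, minus strand). The lowest, median and highest levels of SAMHD1 were 29.2, 38.4 and 129 CPM in DMSO_siNT, 37.8, 40.1 and 43.7 CPM in 4OHT_siNT and 23.3, 31.8 and 40.6 CPM in 4OHT_siSMARCA4. DMSO_siNT 4-2V gave the 129 CPM, and the other libraries of its group reached 48.6 CPM. In the knockdown group the V libraries were at 31.1, 39.4 and 40.6 CPM, the VM libraries at 26.2 and 23.3 CPM and the unlabelled library at 32.6 CPM.

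The fall of SAMHD1 in 4OHT_siSMARCA4 against DMSO_siNT (-0.71 ± 0.28, adjusted p = 0.0386) was not called without DMSO_siNT 4-2V (-0.23, 95% interval -0.51 to 0.05, adjusted p = 0.153), nor without any of the knockdown libraries 2-3V, 2-3VM, 4-2VM and the unlabelled library. After knockdown relative to 4OHT_siNT the log2 fold change was -0.32 (interval -0.90 to 0.26, adjusted p = 0.518). Within VM sets SAMHD1 fell relative to 4OHT_siNT (-0.72 ± 0.11, adjusted p = 0.000521) and relative to DMSO_siNT (-0.42 ± 0.12, adjusted p = 0.0111), the latter in a comparison that called 43.9% of all genes. For senescence alone the direction turned with the libraries used: -0.39 (adjusted p = 0.241) with all libraries, 0.10 (adjusted p = 0.557) without DMSO_siNT 4-2V and 0.29 ± 0.09 (adjusted p = 0.0160, with 53.5% of all genes called) within VM sets. V libraries of the knockdown group exceeded VM libraries by 0.59 ± 0.14 without DMSO_siNT 4-2V in the fit (adjusted p = 0.0342, with 1.62% of all genes called). With DMSO_siNT 4-2V in the fit, SAMHD1 was not called between them, where 0.101% of all genes were.

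TREX1, the exonuclease that degrades cytosolic DNA (chromosome 3, 48465811 to 48467645, plus strand), had 0 counts on its line in all 18 libraries. All of its 1448 exon bases lie within exons of ATRIP on the same strand in GENCODE v44. The ATRIP line held 0 to 5 counts per library and the line of the readthrough gene ATRIP-TREX1 held 0 to 4. How reads shared by these genes were counted is not given in the sources used here, so no level of TREX1 is drawn from the 0.

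**Figure D3:**
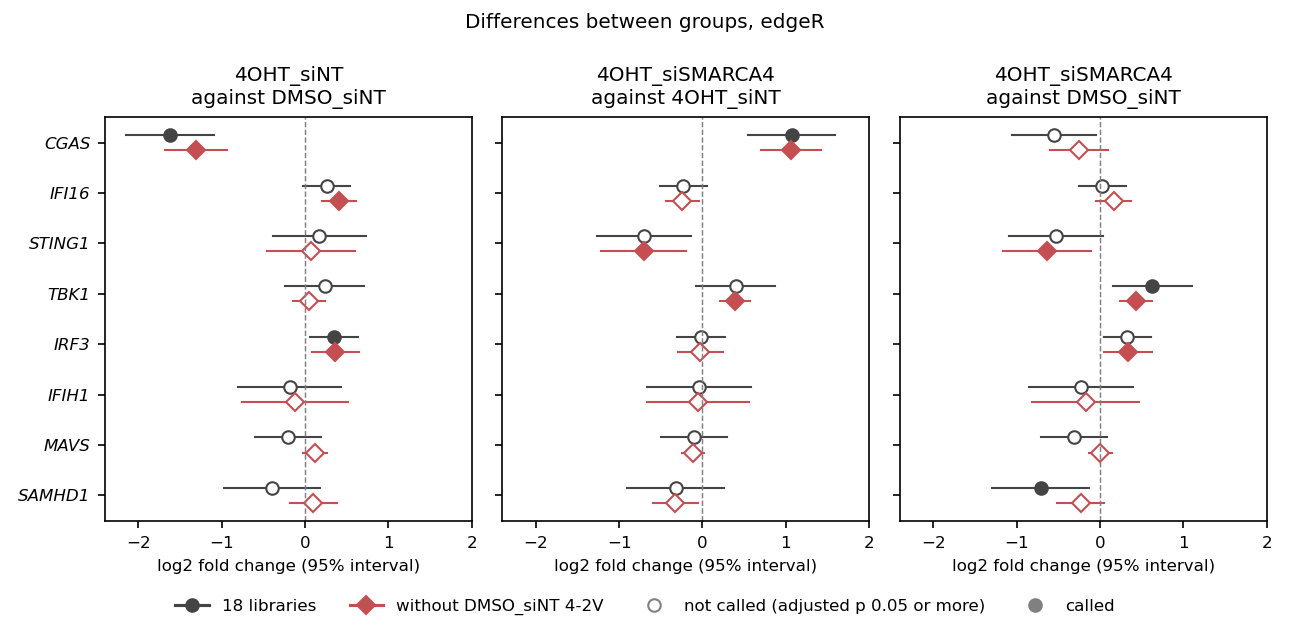
Log2 fold change (horizontal axis) with its 95% interval for the 8 tested genes in the 3 comparisons of groups, with all 18 libraries and without DMSO_siNT 4-2V. Filled points were called. CGAS was called in the first 2 comparisons in both fits, and the intervals of TBK1, MAVS and SAMHD1 were narrower without DMSO_siNT 4-2V.

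Per length of the MANE Select transcript, the order of the genes in 4OHT_siNT by mean CPM per kilobase was IRF3 (42.0), IFI16 (33.9), STING1 (14.6), MAVS (12.4), TBK1 (11.2), SAMHD1 (8.66), CGAS (0.867), IFIH1 (0.660) and TLR3 (0.0181). The ranges of STING1, MAVS and TBK1 overlapped, as did those of TBK1 and SAMHD1 and those of CGAS and IFIH1. In DMSO_siNT, CGAS averaged 2.69 CPM per kilobase and in 4OHT_siSMARCA4 1.82 CPM per kilobase. In these bulk libraries, fewer cells that express a gene and less RNA per cell cannot be told apart.

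No gene of the set was called between siSMARCA4_2 and siSMARCA4_4, a comparison that called 0.00732% of all genes, and none between siNT 2 and siNT 4 in DMSO_siNT, where 0.0512% were called. The lowest p among them between the SMARCA4 siRNAs was that of IRF3 (0.45, p = 0.0206, adjusted p = 0.677). Without DMSO_siNT 4-2V, siSMARCA4_2 against all 4OHT_siNT libraries also called STING1 (-0.93, adjusted p = 0.0191), SAMHD1 (-0.42, adjusted p = 0.0388) and IFI16 (-0.34, adjusted p = 0.0214), which siSMARCA4_4 did not. The comparison with siSMARCA4_2 called 29.4% of all genes and that with siSMARCA4_4 16.4%. The siSMARCA4_2 libraries were sets 3V and 3VM and the unlabelled library, while the siSMARCA4_4 libraries were sets 2V, 3V and 2VM. The siRNA and the set letters cannot be fully told apart in these libraries. A call with only 1 of the siRNAs is not shown to differ between them.

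Other genes of DNA and RNA sensing and of nucleic acid clearance were taken from 3 lists of 41 genes, of which 33 were tested. AIM2, ZBP1, DHX58, TLR7, TLR8, OAS1, OAS2 and IRF5 had too few counts. After induction of senescence 9 rose and 9 fell, 18 of 33 where 52.8% of all genes were called, with a median log2 fold change of -0.08 against -0.05 over all genes. Without DMSO_siNT 4-2V, 10 rose and 11 fell of 34 tested, where 58.3% of all genes were called. In the fit of all libraries, those that rose were the TBK1-related kinase IKBKE (1.17 ± 0.16, adjusted p = 4.17e-06), TRAF3 (1.09), the TLR3 adaptor TICAM1 (0.88), IRF1 (0.86), TANK (0.72), TRIM32 (0.71), the RNA editing enzyme ADAR (0.64), LSM11 (0.47) and RNF5 (0.34). Among those that fell were the subunits RNASEH2A (-2.41) and RNASEH2B (-1.22) of ribonuclease H2, which removes RNA from RNA and DNA hybrids, and the oligoadenylate synthetase OAS3 (-2.32). Also lower were MRE11 (-0.81), the cGAMP hydrolase ENPP1 (-0.73), NLRX1 (-0.64), RNF135 (-0.40) and DDX58 (-0.30), the RIG-I gene. Within VM sets, where 53.5% of all genes were called, DDX58 (-0.15, adjusted p = 0.146) and RNF5 (0.28, adjusted p = 0.0659) were not called. The other genes named as higher or lower here were called within VM sets too.

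After SMARCA4 knockdown 3 of the 33 were called, where 10.6% of all genes were, with a median of 0.04 against 0.01 over all genes. DNASE2, the lysosomal DNA nuclease, rose 1.76-fold (0.82 ± 0.16, adjusted p = 0.00241), from 38.7 to 44.8 CPM in 4OHT_siNT to 46.3 to 95.7 CPM in 4OHT_siSMARCA4. Every knockdown library was above every 4OHT_siNT library, which held for 5.12% of all genes tested. DNASE2 too was split by set letters, at 46.3 to 67.7 CPM in V libraries, 95.7 and 86.3 CPM in VM libraries and 80.3 CPM in the unlabelled library. RNF135, a ubiquitin ligase of RIG-I, rose by 0.38 (adjusted p = 0.0211). IKBKE fell by 0.56 (SE 0.16, adjusted p = 0.0259), with 35.1 to 51.4 CPM in 4OHT_siNT and 25.4 to 35.4 CPM in knockdown cells. Without DMSO_siNT 4-2V, 3 genes of the lists rose and 2 fell of 34 tested, where 24.6% of all genes were called. Within VM sets, where 21.0% of all genes were called, 1 rose, DNASE2 (1.14), and 7 fell: PRKDC (-0.74), IKBKE (-0.68), ADAR (-0.44), EIF2AK2 (-0.43), TRIM32 (-0.38), STIM1 (-0.35) and TRAF3 (-0.30).

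**Figure D4:**
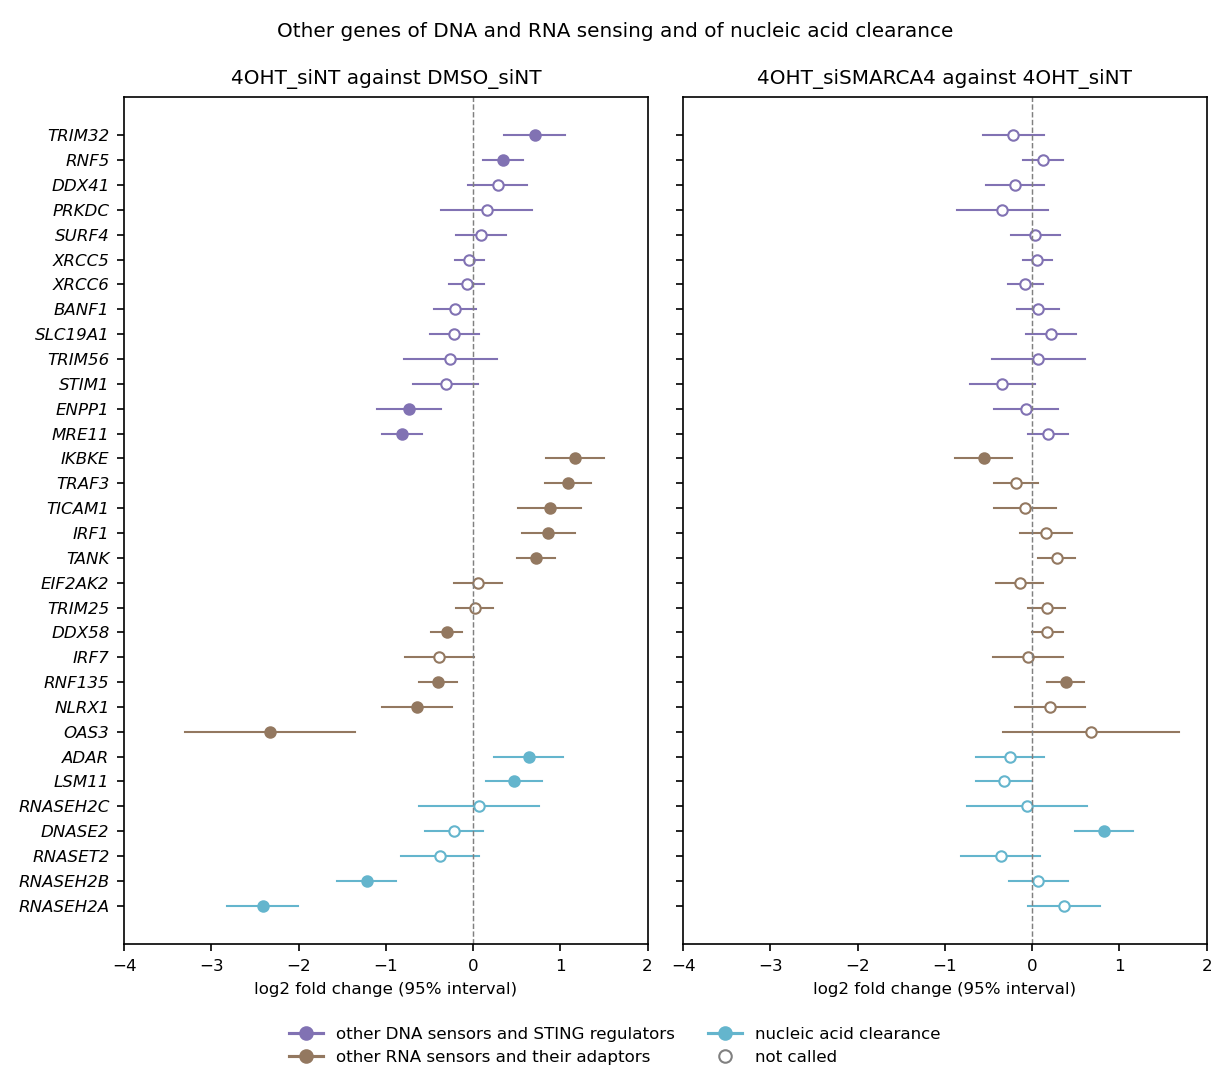
Log2 fold change (horizontal axis) with its 95% interval of other sensing, adaptor and clearance genes after induction of senescence and after SMARCA4 knockdown, with called genes filled. RNASEH2A at -2.41 and OAS3 at -2.32 fell furthest after induction, and DNASE2 at 0.82 rose furthest among the 3 called after knockdown.

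Known outputs of the pathway were read as levels. IFNB1, the gene of interferon beta, had 0 to 1 count per library, IFNL1 had 0 in all libraries and the chemokine gene CCL5 had 0 to 3 counts. The chemokine gene CXCL10 was at 0 to 5.5 CPM in DMSO_siNT, 7.27 to 10.9 CPM in 4OHT_siNT and 33.8 to 59.4 CPM in 4OHT_siSMARCA4, with no overlap between groups. Of all genes tested, 33.8% did not overlap between 4OHT_siNT and DMSO_siNT. Non-overlap upward was seen for 5.12% in 4OHT_siSMARCA4 against 4OHT_siNT and for 14.3% against DMSO_siNT. The interferon-stimulated genes IFIT1 and ISG15 showed other orders. IFIT1 was at 5.46 to 18.3 CPM in DMSO_siNT, at most 1.93 CPM in 4OHT_siNT and 0.0788 to 0.691 CPM in knockdown cells, and it fell after induction of senescence (-3.12 ± 0.39, adjusted p = 1.83e-06, and -2.83, adjusted p = 4.34e-07, without DMSO_siNT 4-2V). The further fall of IFIT1 after knockdown was called only without DMSO_siNT 4-2V (-1.51, adjusted p = 0.0179). ISG15 was at 30.7 to 233 CPM, 36.3 to 45.5 CPM and 23.9 to 49.9 CPM in the same order, with the 233 CPM in DMSO_siNT 4-2V and the other libraries of that group at 49.8 CPM or less.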

How the data were processed

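Polyadenylated RNA of IMR90 ER:RAS cells was made into strand-specific libraries and sequenced as single-end reads. The authors deposited raw counts per gene, 36 columns for 18 libraries with 2 lanes each. Per the submitters' processing notes the tools were STAR 2.7.8a and DESeq2 1.36.0 and the build hg38; the annotation, counting program and strand setting are not given in the sources used here. Lanes were summed. Of 29 labelled samples, 17 matched a library by title and 12 were not analysed here; the unlabelled library was placed by treatment and siRNA in its column name. Library totals are given with the groups, and low counts limit TLR3.

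Genes were filtered with filterByExpr (minimum count 10; 13136 genes, 99.9% of counts), scaled by TMM and tested by quasi-likelihood (edgeR 4.0.16, R 4.3.3), the 3 groups sharing 1 fit with no covariate. A fit of 6 levels (treatment by siRNA number) and a fit with V and VM as levels gave the other comparisons. SEs come from the F statistic. Intervals are 95%. Lanes of a library gave a chi-square per degree of freedom of 1.19 to 1.27 and library pairs within a group 2.33 to 315, so none was a duplicate. The steps were tested on simulated data. Named genes are the 10 genes, SMARCA4, ESR1, 3 pathway lists where called or not measured, 6 outputs and the 2 genes most like each of the 10. Genes and lists were chosen with earlier results of these data known. Alternatives covered the scaling, DESeq2 1.42.0, filters, thresholds, sets, groups fitted and left-out libraries. Chosen after seeing the data were a term for set letters, VM sets joined by the unlabelled library, V sets alone, and leaving out DMSO_siNT 4-2V in the V and VM comparison or together with the unlabelled library, and leaving out DMSO_siNT 2-1V for TLR3. Some listed genes enter the counts and are not reported here by name.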

Additional observations from a re-analysis of the deposited data

Results flagged for a closer look

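Of 30 groups of 6 libraries (9 of the 10 genes and SMARCA4, in 3 groups each, with TREX1 left out because it was at 0 throughout), 7 held a library whose gap to its nearest neighbour took a share of the range above Dixon's 95% critical value; chance flags about 1 in 20 groups. DMSO_siNT 4-2V gave 5 of them. It was high for CGAS (17.2 CPM against 6.12 to 7.66 in the other libraries), MAVS (335 CPM against 126 to 149) and SAMHD1 (129 CPM against 29.2 to 48.6). It was low for STING1 (16.7 CPM against 28.5 to 33.8) and TBK1 (7.53 CPM against 28.8 to 36). TLR3 stood out in DMSO_siNT 2-1V, at 2.85 CPM against 0.364 to 1.24, and in 4OHT_siSMARCA4 4-2VM, at 0 against 0.0788 to 0.112 CPM, where the latter are 1 or 2 counts.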

How the results depend on the processing

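Values are log2 fold changes unless a count is named. CGAS was called after knockdown (1.07) in all settings but 2, the set label as a replicate block (0.91, adjusted p = 0.222) and the set letters as a term (0.85, adjusted p = 0.0949). Leaving out libraries in turn gave 0.95 to 1.14.

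In 4OHT_siNT against DMSO_siNT, IFIH1 turned from -0.18 to 0.60 within VM sets, 0.60 with the unlabelled library added and 0.46 with the letters as a term, and ran from -0.33 to 0.11 with a library left out. SAMHD1 turned from -0.39 to 0.29, 0.29 and 0.16 in the same settings and to 0.091 without DMSO_siNT 4-2V and the unlabelled library, with -0.50 to 0.10 over left-out libraries. MAVS turned from -0.20 to 0.11 within VM sets, with or without the unlabelled library, and to 0.11 without both libraries in doubt (-0.26 to 0.12 over left-out libraries). For 4OHT_siSMARCA4 against DMSO_siNT, IFIH1 turned to 0.0023 within VM sets and 0.38 with the unlabelled library (-0.36 to 0.057 over left-out libraries), and MAVS to 0.015, 0.0058 and, without both libraries in doubt, 0.0098 (-0.37 to 0.0056). IFI16 turned from 0.03 to -0.011 with at least 10 counts in every library and -0.22 in V sets (-0.048 to 0.16), and STING1 to 0.13 in V sets. The V sets include DMSO_siNT 4-2V. After knockdown, IRF3 turned from -0.02 to 0.0064 with every gene of at least 1 count, 0.015 within VM sets, 0.011 with the unlabelled library and 0.041 with the letters as a term (-0.11 to 0.10), and IFIH1 ran from -0.15 to 0.11 over left-out libraries. None of these turned values was called except SAMHD1 within VM sets, with and without the unlabelled library. The cause was not tested.

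Same-set libraries of different groups had correlated deviations from -0.286 to 0.299 (median 0.04, over 0.1 in 5 of 15 pairs), so the set numbers were not taken to pair samples. With the replicate block, genes called were 4356 (senescence) and 236 (knockdown), sensing genes called 1 (senescence), 0 (knockdown) and 0 (4OHT_siSMARCA4 against DMSO_siNT) and pathway genes called after knockdown 1; IFIH1 was at 0.49 and SAMHD1 at 0.19 after induction.

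Genes called after knockdown, 1397, became 595 at an adjusted p under 0.01, 3405 with only the 2 groups, 2858 within VM sets, 4064 with the unlabelled library and 2670 without both libraries in doubt (923 to 3269 over left-out libraries, the highest without DMSO_siNT 4-2V). Those against DMSO_siNT, 6635, became 2732 in V sets (6347 to 7850), and after induction 6935 ran from 6511 to 7734. Sensing genes called after induction, 2, became 1 at 0.01 and 4 within VM sets, with or without the unlabelled library (1 to 3 over left-out libraries). After knockdown, 1 became 4, 4, 2 with only the 2 groups and 2 without both libraries in doubt (1 to 3). Against DMSO_siNT, 2 became 0 at 0.01, 4 with DESeq2, 4 and 4 within VM sets, 0 with only the 2 groups, 1 in V sets and 1 without both libraries in doubt (1 to 3). With siSMARCA4_2, 1 became 0 at 0.01, 2 with DESeq2 and 2 with every gene (0 to 5); with siSMARCA4_4, 0 became 1 with DESeq2 and 1 with every gene (0 to 2). Between siNT 2 and siNT 4 in DMSO cells the count ran from 0 to 1. Pathway genes called after knockdown, 3, became 1 at 0.01, 8 within VM sets, 10 with the unlabelled library, 7 with only the 2 groups and 1 with the letters as a term (1 to 5). Depth limits TLR3.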

Other observations

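Genes whose levels moved most like each sensing gene were ranked by Pearson's correlation of log2 CPM over the 18 libraries after each group's mean was subtracted, among 11514 genes. The values are descriptions, since all genes share the libraries and DMSO_siNT 4-2V weighs on most of them. The closest genes to CGAS were SIGIRR (r = 0.885) and TMEM54 (0.881), and without DMSO_siNT 4-2V TK1 (0.862) and DTNB (0.826). For STING1 they were FADS3 (0.943) and RTL10 (0.921), and without that library CSRNP1 (0.974) and SH3BP1 (0.971). For TBK1 they were ZDHHC7 (0.973) and ANO10 (0.971), and without it FGD4 (0.920) and PPP4R3A (0.918). IRF3 kept HMG20B (0.956) and SPAG7 (0.950) in either case, and IFIH1 kept ARID5B (0.846) and MFSD6 (0.833). For IFI16 the closest were UGCG (0.904) and RHOQ (0.900), for MAVS RBM15 (0.973) and KIAA2026 (0.964), and for SAMHD1 SMARCC1 (0.955), another SWI/SNF subunit, and KIAA0319L (0.954). Without DMSO_siNT 4-2V these pairs became VGF (0.844) and UGCG (0.837) for IFI16, DOCK9 (0.845) and PSG4 (0.839) for MAVS, and SHROOM2 (0.959) and GCLC (0.918) for SAMHD1.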
